A study of Mus musculus with 24 samples.

Results

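Slc7a3 encodes a cationic amino acid transporter of the plasma membrane. It is described here together with 9 other amino acid transporter genes, so that 10 of the 56941 gene IDs in the count files are the subject. The 10 genes are Slc7a1, Slc7a2, Slc7a3, Slc7a5, Slc7a6, Slc7a11, Slc3a2, Slc1a4, Slc1a5 and Slc38a2. They form a fixed list of cationic, neutral and cystine transporters and were picked because Slc7a3 was lower in high glucose. The differences between the media are therefore a description of the choice and carry no test for these 10 genes.

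Polyadenylated RNA was sequenced from mouse cells, labelled as an adult hypothalamic neuronal line, that were grown in normal or high glucose with or without mogroside V, a sweet triterpene glycoside of monk fruit. The sample titles give 8 groups of 3 libraries. They are the normal-glucose control (NGC), normal glucose with treatment dose 1, 2 or 3 (NG1, NG2, NG3), the control in high glucose (HGC), and HG1, HG2 and HG3, the same doses in high glucose. All groups share 1 cell line with no stated genetic change, no label ties a dose number to one of the 15, 60 and 160 µM of the series design, and no label gives the time in culture or the glucose concentrations. Nothing states whether replicate libraries are separate cultures, and the p-values then cover only the spread among these libraries, which may be technical. No batch is labelled either, so the medium and an unlabelled batch that follows it cannot be told apart.

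Of the 24 files, HG2 replicate 3 and HG3 replicate 2 are identical, and both were left out, which leaves 22 libraries with n = 2 in HG2 and HG3. These 22 libraries hold 3396249 to 7773074 counts assigned to genes. NG3 replicate 3, with the fewest genes detected (16535), and HGC replicate 2 stood apart from the other libraries in earlier work on these files, and values without both are given beside the results that rest on them. Of 14 neuron markers, 5 passed the low-count filter, Elavl4 and Slc32a1 were at 0 in all libraries, and Rbfox3, Snap25, Syt1 and Syp were among 9 markers under 1 CPM (counts per 1000000 gene counts of a library). Tubb3 had the highest mean of the 14, at 58.8 CPM. Of 12 hypothalamic neuropeptide genes, only Gnrh1 passed, at a mean of 3.26 CPM, and Cartpt, Trh, Avp and Kiss1 were at 0. Of 8 astrocyte markers, 5 (Gfap, Aqp4, Aldh1l1, S100b and Rax) were under 1 CPM. The highest of the 8, Vim, which is also made by fibroblasts, had a mean of 3266 CPM. Of 9 fibroblast markers 8 passed the filter, and the highest, the collagen gene Col1a2, had a mean of 3301 CPM. The cells are therefore called here by their label only.

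Cationic amino acids such as arginine and lysine enter most cells through the uniporters encoded by Slc7a1, Slc7a2 and Slc7a3, of which Slc7a3 is known mainly from neurons and Slc7a2 also from macrophages, liver and muscle. The glycoprotein encoded by Slc3a2 is the heavy chain that carries the light chains encoded by Slc7a5, Slc7a6 and Slc7a11 to the plasma membrane, where they exchange large neutral amino acids, cationic for neutral amino acids, and cystine for glutamate. Slc1a4 and Slc1a5 encode sodium-coupled exchangers of small neutral amino acids and glutamine, and Slc38a2 encodes a sodium-coupled importer of neutral amino acids. Several of these genes are textbook targets of the transcription factor ATF4, which cells make when amino acids run short or the endoplasmic reticulum is under stress.

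RefSeq promoter windows, from 250 bases before to 50 bases after the annotated start on build GRCm38.p6, were at hand for 6 of the 10 genes (Slc7a1, Slc7a6, Slc7a11, Slc3a2, Slc1a4 and Slc38a2), as 8 windows, since Slc7a1 and Slc7a6 have 2 each. The core of the amino acid response element, searched as TGATGNAAN on both strands, occurred in 3.95% of 32851 windows of this length over all genes. It occurred in the windows of Slc7a11 and Slc1a4, and both also hold the narrower form TGATGCAAN, which 0.889% of the windows hold. Both stretches are on the minus strand and are shown because they come from the only 2 of the 8 windows with these letters, which are in capitals. The Slc7a11 stretch, chr3:50443633-50443739, runs from 126 to 20 bases before the start and holds a match on each strand, and the Slc1a4 stretch, chr11:20332710-20332778, runs from 65 bases before the start to the base at position 4 of the transcript.
Slc7a11: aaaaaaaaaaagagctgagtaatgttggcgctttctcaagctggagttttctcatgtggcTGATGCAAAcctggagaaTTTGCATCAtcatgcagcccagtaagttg
Slc1a4: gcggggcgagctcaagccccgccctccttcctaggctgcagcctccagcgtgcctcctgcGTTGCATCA
The core of the antioxidant response element, TGACNNNGC, occurred in the windows of Slc7a1, Slc7a6 and Slc38a2 and in 12.4% of all windows. The E-box CACGTG occurred in none of the 8 and in 7.15% of all windows. A match describes letters only, and no binding was measured.

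All 10 genes passed the low-count filter, which kept 13281 genes. Per length of all annotated exons, Slc3a2 had the highest level, with a mean of 130 CPM per kilobase over the 22 libraries. Slc38a2 followed at 40.9, Slc1a5 at 28.7, Slc7a2 at 19.7 and Slc7a5 at 16.4 CPM per kilobase. Slc7a6 (8.03), Slc1a4 (6.79) and Slc7a1 (5.60 CPM per kilobase) were lower. Slc7a3 had a mean of 1.94 and Slc7a11 a mean of 0.202 CPM per kilobase, so the gene the set was chosen for was next to the lowest. These low levels bear on precision. Slc7a3 had 7 to 67 counts and Slc7a11 1 to 20 counts in a library, against 1443 to 3883 for Slc3a2.

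The coefficient of variation of the CPM over the 22 libraries was 51.6% for Slc7a11 and 42.5% for Slc7a3. It was 21.0% for Slc7a2 and lay between 10.7 and 19.9% for the other 7 genes. The exons of Slc7a2 share 635 bases (6.95% of its exon length) with Gm26584 on the opposite strand. Since it is not stated whether the counting used strand, it is not known whether reads from these bases were counted for Slc7a2 or left out as ambiguous.

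**Figure D1:**
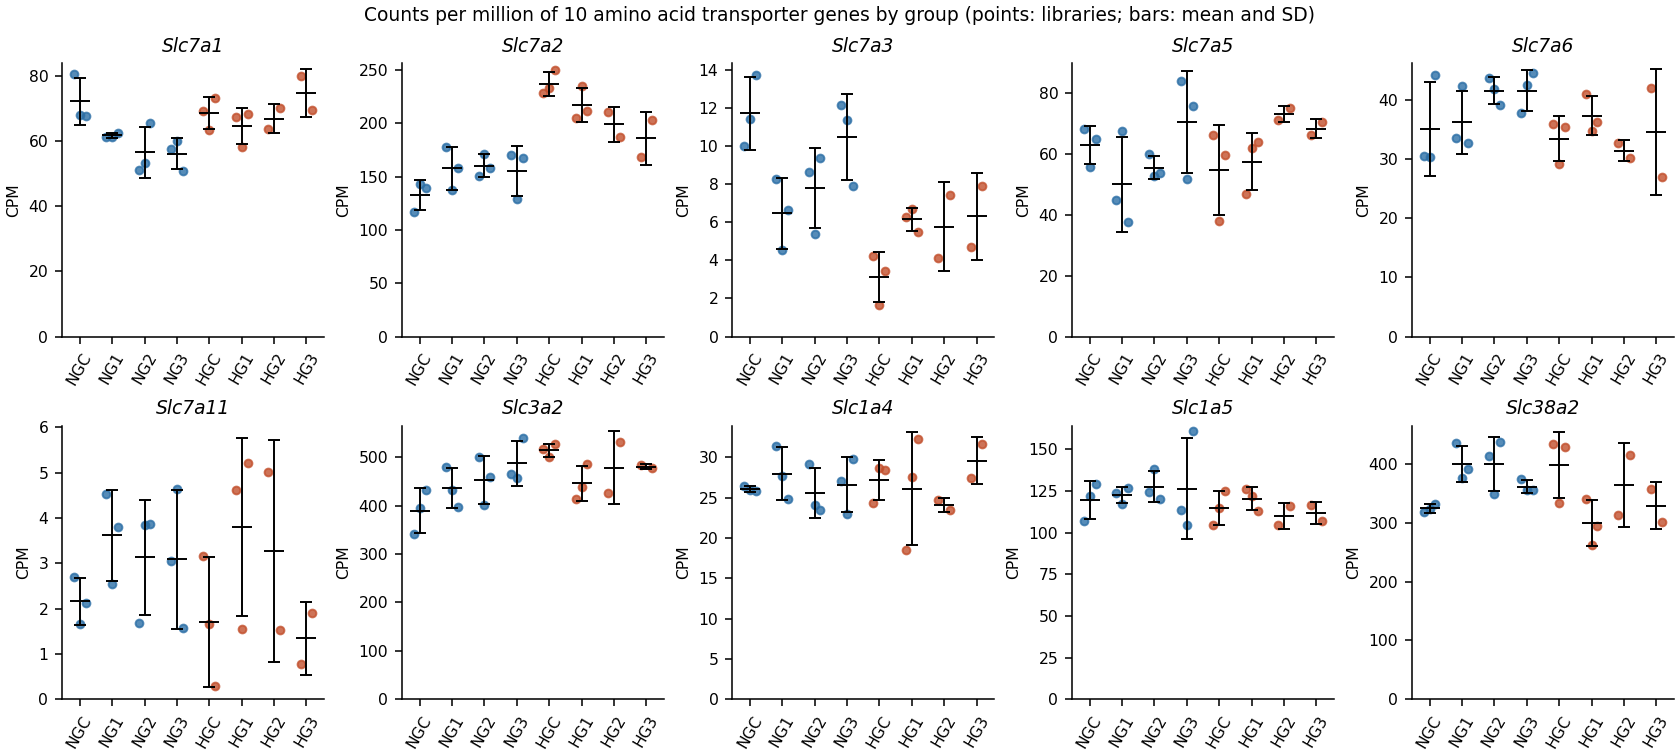
CPM of each of the 10 genes by group, with each library as a point and the mean and SD as bars. For Slc7a3 the 3 NGC libraries lie between 9.98 and 13.7 CPM and the 3 HGC libraries between 1.66 and 4.23 CPM, and for Slc7a2 the order is the opposite, at 117 to 143 against 228 to 250 CPM.

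Slc7a3 was read at 9.98, 11.4 and 13.7 CPM in the NGC libraries and at 4.23, 1.66 and 3.42 CPM in the HGC libraries, so the controls did not overlap. In NG1 it was at 8.25, 4.52 and 6.64 CPM, in NG2 at 8.62, 5.39 and 9.38 CPM, and in NG3 at 12.2, 11.4 and 7.91 CPM. In HG1 it was at 6.25, 6.71 and 5.48 CPM, in HG2 at 4.12 and 7.41 CPM, and in HG3 at 4.67 and 7.92 CPM. The lowest library was HGC replicate 2, with 7 counts, and the highest was NGC replicate 3, with 58 counts. The identical file that was left out had 11 counts of Slc7a3, or 3.36 CPM, within the range of HGC.

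By group mean, Slc7a3 ran from HGC (3.10 ± 1.31 CPM, SD, n = 3) through HG2 (5.76 ± 2.32, n = 2), HG1 (6.15 ± 0.618, n = 3), HG3 (6.30 ± 2.30, n = 2), NG1 (6.47 ± 1.87, n = 3), NG2 (7.80 ± 2.12, n = 3) and NG3 (10.5 ± 2.26, n = 3) to NGC (11.7 ± 1.90, n = 3). Each neighbouring pair of groups in this order overlapped in range, so the order between neighbours is not resolved. The controls stand at its 2 ends, and the 6 treated groups lie between them. Over the media, the mean was 9.11 ± 2.79 CPM in the 12 normal-glucose libraries and 5.19 ± 1.94 CPM in the 10 high-glucose libraries. Of the normal-glucose libraries, 8 lay above every high-glucose library, and 4 high-glucose libraries lay below every normal-glucose library. In bulk RNA, fewer cells that make a transcript and less of it per cell cannot be told apart.

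The fitted difference of Slc7a3 between HGC and NGC was -1.91 ± 0.37 (SE) on the log2 scale, which is 3.76-fold lower. Over all dose levels it was -0.75 ± 0.19, or 1.68-fold lower, and in the treated libraries alone -0.36 ± 0.22. At the single doses the difference between the media was -0.03 ± 0.36 at dose 1, -0.38 ± 0.40 at dose 2 and -0.68 ± 0.39 at dose 3. The difference that picked the gene was thus largest in the controls and smaller at each dose, where its standard errors were 0.36 to 0.40. This is a description without a test. Without NG3 replicate 3 and HGC replicate 2, it was -1.59 in the controls and -0.71 over all dose levels.

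Slc7a2, the cationic transporter gene with the highest level of the 3, stood the other way. Its CPM was 117, 143 and 139 in NGC, 178, 138 and 158 in NG1, 150, 171 and 158 in NG2, and 170, 129 and 168 in NG3. In high glucose it was 228, 234 and 250 in HGC, 205, 235 and 212 in HG1, 211 and 187 in HG2, and 168 and 203 in HG3. Of the 10 high-glucose libraries, 9 lay above every normal-glucose library, and HG3 replicate 1 was the exception. The group means ran from NGC (133 ± 13.9 CPM) through NG3 (155 ± 23.2), NG1 (158 ± 20.1), NG2 (160 ± 10.6), HG3 (186 ± 24.8), HG2 (199 ± 16.7) and HG1 (217 ± 15.9) to HGC (237 ± 11.3 CPM), with n = 2 in HG2 and HG3 and n = 3 elsewhere, and every neighbouring pair overlapped in range. Here too the controls were the 2 ends of the order.

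The difference of Slc7a2 between the controls was 0.84 ± 0.12 on the log2 scale (1.79-fold higher in HGC), and over all dose levels it was 0.51 ± 0.06 (1.42-fold). It was 0.50 ± 0.12, 0.36 ± 0.13 and 0.33 ± 0.13 at doses 1, 2 and 3. The difference was above 0 at each dose, with smaller standard errors than those of Slc7a3, which had 7 to 67 counts in a library. The media difference of the 2 genes was not tested against each other.

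Slc7a1, the widely expressed member of the cationic group, differed little between the controls. It was at 80.4, 68.0 and 67.8 CPM in NGC and at 69.2, 63.2 and 73.0 CPM in HGC, and these ranges overlapped. In NG1 it was at 61.2, 61.3 and 62.4 CPM, in NG2 at 50.9, 53.1 and 65.4 CPM and in NG3 at 57.5, 59.9 and 50.9 CPM. The high-glucose libraries with treatment lay between 58.0 and 79.9 CPM. On the log2 scale the media difference was -0.07 ± 0.13 in the controls, 0.11 ± 0.14 at dose 1, 0.29 ± 0.15 at dose 2 and 0.48 ± 0.15 at dose 3.

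**Figure D2:**
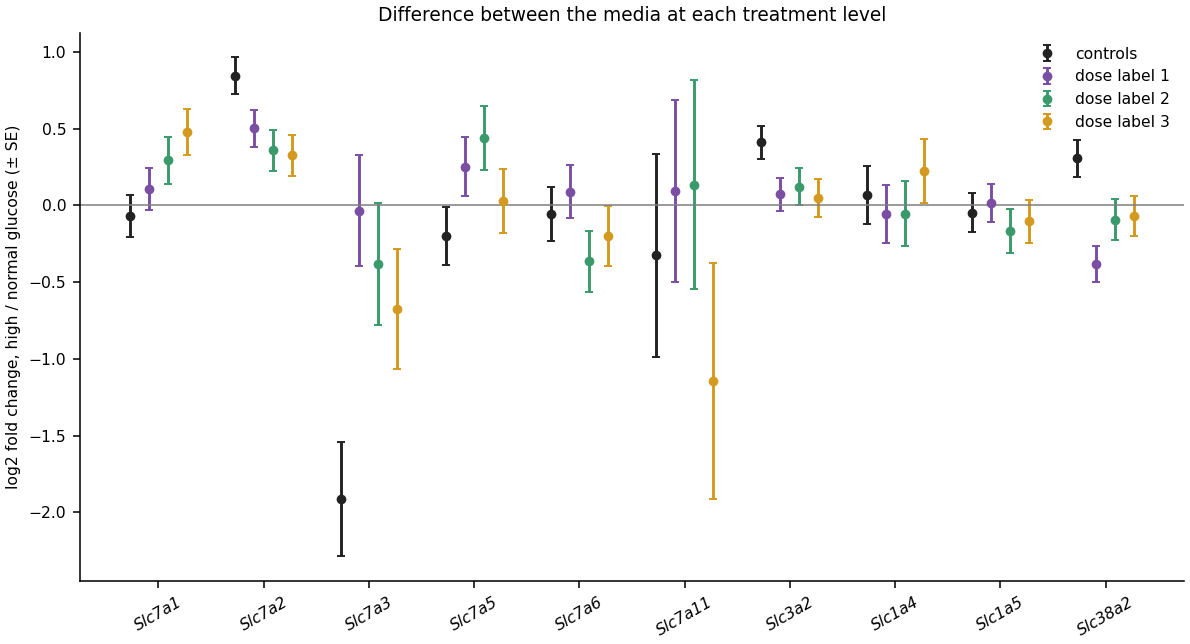
Fitted log2 fold change of high against normal glucose (± SE) for each of the 10 genes, in the controls and at the 3 dose labels. Slc7a3 is lowest in the controls (-1.91) and near 0 at dose 1 (-0.03), and Slc7a2 lies above 0 at all 4 levels.

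Set side by side per kilobase, the 3 cationic transporter genes made up different shares in the controls. Slc7a3 held 12.9 ± 1.55% of their summed CPM per kilobase in NGC and 2.50 ± 1.05% in HGC (SD, n = 3 each). Slc7a2 held 60.8 ± 3.33% in NGC and 79.4 ± 1.71% in HGC, and Slc7a1 26.3 ± 4.16% and 18.1 ± 0.663%. These shares depend on the annotated exon lengths of 11530 (Slc7a1), 9135 (Slc7a2) and 3784 bases (Slc7a3), which may differ from those of the transcripts made. The summed level was 23.9 ± 1.28 CPM per kilobase in NGC and 32.7 ± 1.64 in HGC, so the sum was higher in high glucose although Slc7a3 was lower. In the treated groups the share of Slc7a3 was 6.93 ± 1.29% in NG1, 8.44 ± 2.33% in NG2 and 11.3 ± 2.61% in NG3, and 5.24 ± 0.428% in HG1, 5.27 ± 2.26% in HG2 and 5.77 ± 1.59% in HG3. For each count of Slc7a3 there were 10.1 to 12.5 counts of Slc7a2 in the NGC libraries and 53.9 to 141 in the HGC libraries, the highest in HGC replicate 2.

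**Figure D3:**
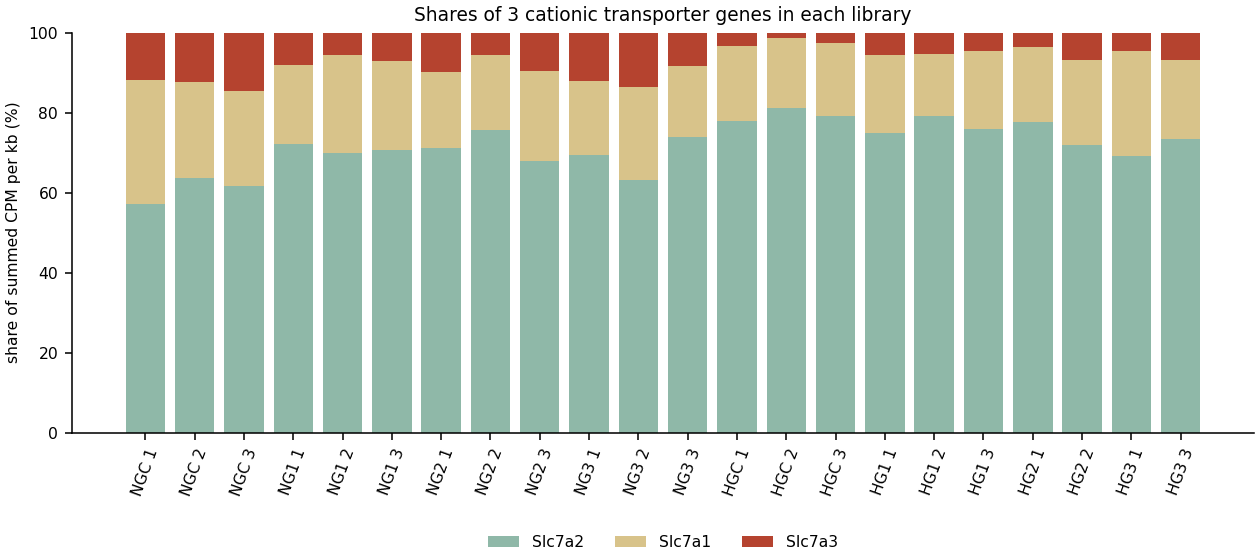
Share of Slc7a2, Slc7a1 and Slc7a3 in their summed CPM per kilobase, 1 stacked bar for each of the 22 libraries. The share of Slc7a3 is between 11.8 and 14.7% in the NGC libraries and between 1.39 and 3.48% in the HGC libraries.

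Slc3a2, the heavy chain gene, was at 341, 395 and 433 CPM in NGC and at 517, 499 and 527 CPM in HGC, which did not overlap. The treated libraries lay at 398 to 540 CPM in normal glucose and at 413 to 532 CPM in high glucose, so that the highest of each medium were above every HGC library. The difference between the controls was 0.41 ± 0.11 on the log2 scale, and it was 0.07 ± 0.11, 0.12 ± 0.12 and 0.05 ± 0.12 at the 3 doses. The large neutral amino acid light chain gene Slc7a5 showed no such separation. It was at 68.1, 55.9 and 64.9 CPM in NGC and 66.3, 38.1 and 59.9 CPM in HGC, and its log2 difference was -0.20 ± 0.19 in the controls and 0.13 ± 0.10 over all dose levels. HGC replicate 2 had the lowest Slc7a5 of the high-glucose libraries.

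Slc7a6, whose light chain exchanges cationic for neutral amino acids, lay between 27.0 and 44.6 CPM over all 22 libraries, with a log2 difference of -0.06 ± 0.17 in the controls and -0.13 ± 0.09 over all dose levels. Slc7a11, the light chain of the cystine and glutamate antiporter, was near the floor of the counting. HGC replicate 3 had 1 count, and the most counts, 20, were in NG3 replicate 2. Its difference between the controls was -0.32 ± 0.66, with a standard error wider than that of the other 9 genes. Slc3a2 exceeded the sum of the 3 light chains per kilobase by 3.82 to 8.44 times in each library, with a mean of 4.48 ± 0.652 in NGC and 6.77 ± 1.47 in HGC, where HGC replicate 2 had the highest value.

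Among the sodium-coupled carriers, Slc38a2 was at 318, 323 and 332 CPM in NGC and at 434, 334 and 430 CPM in HGC. These did not overlap, although HGC replicate 2 lay just above NGC replicate 3. Its log2 difference between the controls was 0.31 ± 0.12, and it was 0.42 without NG3 replicate 3 and HGC replicate 2. At doses 1, 2 and 3 the difference was -0.38 ± 0.12, -0.09 ± 0.13 and -0.07 ± 0.13. Only at dose 1 did it exceed its standard error, with the sign opposite to that of the controls. Slc1a4 lay between 18.5 and 32.4 CPM and differed by 0.07 ± 0.19 between the controls. Slc1a5 lay between 104 and 161 CPM, with the highest value in NG3 replicate 3, and differed by -0.05 ± 0.12.

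Counted over the set, the controls did not overlap for 4 of the 10 genes (Slc7a2, Slc7a3, Slc3a2 and Slc38a2), against 18.2% of all 13281 genes. For none of the 10 were all normal-glucose libraries apart from all high-glucose libraries, against 0.783% of all genes. By the edgeR call at an adjusted p under 0.05 with Benjamini-Hochberg adjustment over all genes, 3 of the 10 passed between the controls, where 2.28% of all genes passed. These were Slc7a2 and Slc3a2, which were higher in HGC (1.89% of all genes), and Slc7a3, which was lower (0.392%). Over all dose levels 2 passed of the 10 and 10.1% of all genes, Slc7a2 as higher (5.71%) and Slc7a3 as lower (4.38%) in high glucose. In the treated libraries 2 passed and 8.1% of all genes, Slc7a1 and Slc7a2, both as higher (4.69%) and none as lower (3.41%). Nothing is read from these counts, since the choice of genes used the contrast. The median log2 difference of the 10 genes was -0.05 between the controls and -0.01 over all dose levels, beside -0.01 for all genes in both.

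Mogroside V was compared with the control as the mean of the 3 doses over both media, a comparison balanced over the media. None of the 10 genes passed in edgeR (adjusted p of at least 0.994, background 0%), and none passed in DESeq2. At an unadjusted p under 0.05 there was 1 of the 10, Slc7a1, and 630 of all 13281 genes. Slc7a1 differed by -0.18 ± 0.08 on the log2 scale, with a 95% interval of -0.34 to -0.02 and an edgeR adjusted p of 0.994. For Slc7a3 the difference was 0.20 ± 0.22, with an interval of -0.24 to 0.64, and for Slc7a2 it was -0.02 ± 0.07, with an interval of -0.17 to 0.12. The intervals of Slc3a2 (-0.11 to 0.15), Slc1a5 (-0.14 to 0.15) and Slc38a2 (-0.18 to 0.11) were narrow, whereas that of Slc7a11 (-0.25 to 1.32) was wide.

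**Figure D4:**
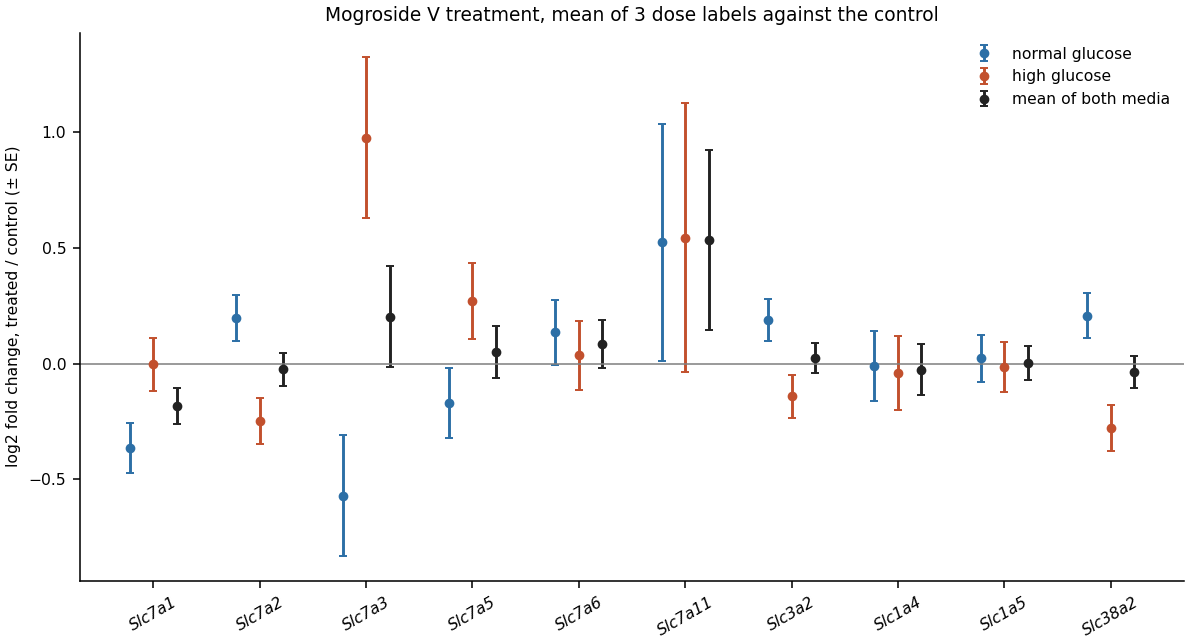
Fitted log2 fold change of treated against control libraries (± SE), as the mean of 3 dose labels, for each of the 10 genes in normal glucose, in high glucose and as the mean of both media. Slc7a3 lies at -0.57 in normal and 0.98 in high glucose, and at 0.20 over both media, and none of the 10 passed the test of the mean over both media.

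Within a medium, the comparison with treatment uses the same NGC or HGC libraries that helped to choose the genes, so its values are given as a description beside the count of calls. In normal glucose Slc7a3 was below all controls in 7 of 9 treated libraries, with a log2 difference of -0.57 ± 0.26, and -0.87 ± 0.34, -0.62 ± 0.33 and -0.21 ± 0.32 at doses 1, 2 and 3. In high glucose it was above all controls in 6 of 7 treated libraries, with a difference of 0.98 ± 0.35, and between 0.91 ± 0.44 (dose 2) and 1.02 ± 0.43 (dose 3) at the single doses. Without NG3 replicate 3 and HGC replicate 2 the 2 differences were -0.51 and 0.66. Slc7a2 was above all controls in 7 of 9 treated libraries in normal glucose (0.20 ± 0.10) and below all controls in 6 of 7 in high glucose (-0.25 ± 0.10).

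Slc7a1 in normal glucose was below all 3 controls in each of the 9 treated libraries, and Slc38a2 was above all 3 controls in each of the 9. Of all genes, 1.48% had treated and control libraries of normal glucose that did not overlap. The log2 difference was -0.36 ± 0.11 for Slc7a1 and 0.21 ± 0.10 for Slc38a2. In high glucose the 7 treated libraries overlapped with the controls for all 10 genes, against 1.76% of all genes that did not overlap, and Slc38a2 was below all controls in 4 of the 7, with a difference of -0.28 ± 0.10. Slc3a2 was above the mean of the controls in 9 of 9 treated libraries in normal glucose (0.19 ± 0.09) and below it in 6 of 7 in high glucose (-0.14 ± 0.09).

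None of the 10 genes passed the edgeR test of treatment in normal glucose (background 0%, lowest adjusted p 0.219, Slc7a1) or in high glucose (0%, lowest adjusted p 0.927). At an unadjusted p under 0.05 there were 4 of 10 in normal glucose and 1120 of 13281 genes in all, and 3 of 10 in high glucose and 679 in all. DESeq2 called none of the 10 in either medium. In the 60 pairs of a gene and a single dose, edgeR called 0, with a lowest adjusted p of 0.193 for Slc7a1 in NG3. There were 12 pairs at an unadjusted p under 0.05, where 4.51% (HG3) to 10.4% (NG3) of all genes were under it. These pairs use the controls that helped to choose the genes, and nothing is read from their count. DESeq2 also called 0 of the 60 pairs. Over all genes, 17 passed in NG3 (0.128%), 1 in NG2 (0.00753%) and 0 at the other 4 dose groups.

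The difference of the treatment effects between the media, high minus normal glucose, was 1.55 ± 0.43 on the log2 scale for Slc7a3, and 1.17 without NG3 replicate 3 and HGC replicate 2. It was -0.45 ± 0.14 for Slc7a2, -0.49 ± 0.14 for Slc38a2, -0.33 ± 0.13 for Slc3a2 and 0.36 ± 0.16 for Slc7a1. This contrast holds both groups of controls and is not independent of the choice of the genes. The edgeR interaction test called none of the 10 (lowest adjusted p 0.218, background 0.00753%), with 5 of 10 at an unadjusted p under 0.05 against 1126 of all genes, and DESeq2 called none of the 10. A different response to treatment in the 2 media was therefore not shown for any of the 10.

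The other genes of amino acid handling were not chosen on Slc7a3, and their media differences over all dose levels were tested with edgeR. In the amino acid response list, Chac1, a glutathione-degrading enzyme made under stress, rose by 1.16 ± 0.16 on the log2 scale (edgeR adjusted p 6.70e-07). Ddit3, a transcription factor of the stress response, rose by 0.77 ± 0.12 (1.44e-05), and Atf4 itself rose by 0.65 ± 0.10 (0.000151). Pycr1, an enzyme of proline synthesis, fell by 0.60 ± 0.15 (0.006). Of the 24 tested members 7 rose and 1 fell, with a median of 0.11, where 10.1% of all genes were called. In the same contrast over all dose levels, and with no test, the 10 transporters had differences of 0.51 (Slc7a2), 0.20 (Slc7a1), 0.16 (Slc3a2), 0.13 (Slc7a5), 0.05 (Slc1a4), -0.06 (Slc38a2), -0.08 (Slc1a5), -0.13 (Slc7a6), -0.31 (Slc7a11) and -0.75 (Slc7a3), 5 above and 5 below 0.

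Other transporters in the files were partly too low to test. None of 10 further genes of the SLC7 and SLC3 families passed the low-count filter. Over all dose levels 5.71% of all genes rose and 4.38% fell. Of 10 further SLC38 genes 6 were tested, and 1 rose, Slc38a7, a lysosomal glutamine transporter, by 0.87 ± 0.18. Of 26 other amino acid transporter genes 13 were tested, and 5 rose and 0 fell, with a median of 0.24. They include Ctns, which exports cystine from lysosomes (0.96 ± 0.15), Slc1a6, a glutamate transporter (0.74 ± 0.10), Slc36a1, a proton-coupled carrier of small amino acids (0.61 ± 0.09), and Slc6a6, the taurine transporter (0.24 ± 0.07), whose call was lost without HG3 replicate 1. Between the controls, where 1.89% of all genes rose, Slc36a1 and Slc1a6 rose by 0.82 ± 0.16 and 0.82 ± 0.19. The call of Slc1a6 between the controls was lost without NGC replicate 2 or 3 or HGC replicate 2 (0.63 to 0.79).

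In the list of amino acid sensing at the lysosome, 7 of 24 tested genes rose over all dose levels and 0 fell, with a median of 0.00, where 5.71% of all genes rose and 4.38% fell. Flcn rose by 0.64 ± 0.10, its partners Fnip2 and Fnip1 by 0.64 ± 0.14 and 0.52 ± 0.06, and Rragc, a small GTPase, by 0.57 ± 0.07. Of the 20 cytosolic aminoacyl-tRNA synthetase genes 7 rose and 1 fell, with a median of 0.14, against the same shares of all genes. Sars1 (0.45 ± 0.08), Aars1 (0.37 ± 0.07), Tars1 (0.35 ± 0.06) and Nars1 (0.25 ± 0.06) were the 4 with the lowest p. Between the controls, where 1.89% of all genes rose, 5 genes of amino acid sensing rose and 1 of the synthetases, Aars1, by 0.51 ± 0.12. Without NG3 replicate 3 and HGC replicate 2 the difference of Aars1 was 0.42 and its call was lost (edgeR adjusted p 0.0585), as it was without NGC replicate 3 (0.43) or without HGC replicate 2 alone (0.42).

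Of the genes of arginine and polyamine metabolism, which use what the cationic transporters bring in, 15 of 22 were tested, and 2 rose and 3 fell over all dose levels, where 5.71% of all genes rose and 4.38% fell. Ddah1, which degrades methylated arginines, rose by 0.42 ± 0.07, and Srm, spermidine synthase, by 0.25 ± 0.07. The antizyme inhibitor gene Azin1 fell by 0.27 ± 0.07 and the antizyme gene Oaz1 by 0.29 ± 0.08, a call that was lost without HG3 replicate 3 (-0.23). The arginases Arg1 and Arg2 and the nitric oxide synthases Nos1, Nos2 and Nos3 did not pass the filter. Of 10 tested genes of glutathione metabolism, beside the cystine carrier Slc7a11, 0 rose and 2 fell, against the same shares of all genes. They were Gsr (glutathione reductase), by 0.41 ± 0.10, and the transcription factor gene Nfe2l2, by 0.22 ± 0.06, whose call was lost without HG2 replicate 1 (-0.19) or HG3 replicate 1 (-0.18). With treatment over both media, edgeR called 0 genes of these lists and of the marker lists, where 0 of all genes passed, 630 had an unadjusted p under 0.05 and DESeq2 called 1 of all genes.

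**Figure D5:**
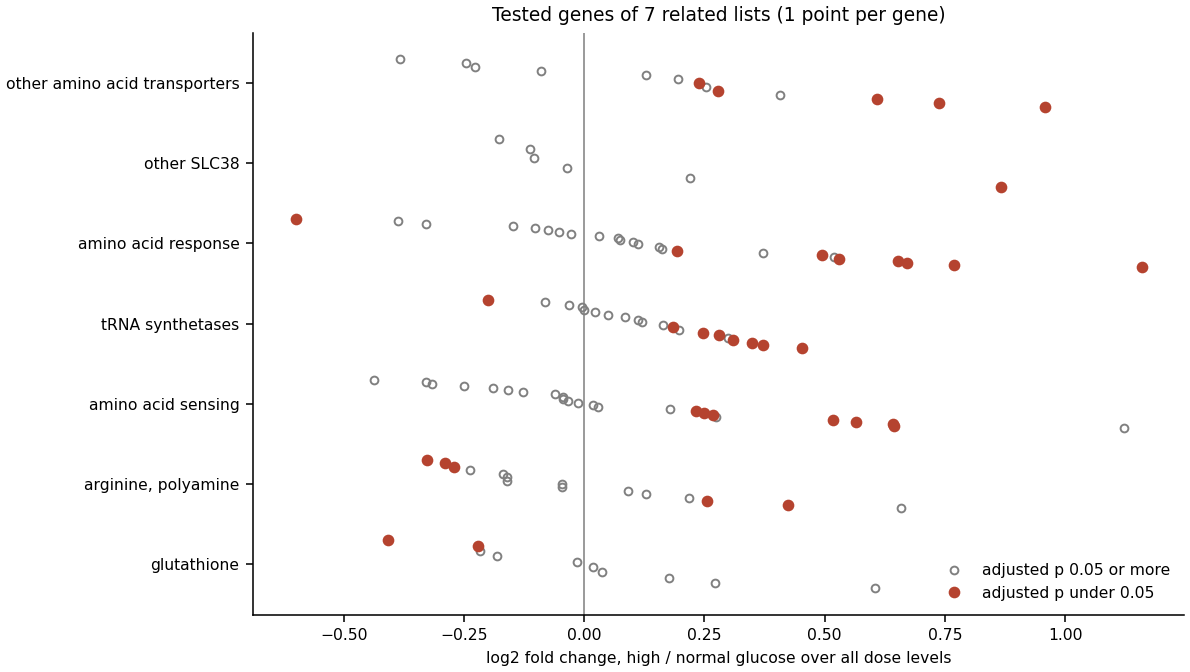
Log2 fold change of high against normal glucose over all dose levels for the tested genes of 7 lists, 1 point per gene, filled where the edgeR adjusted p was under 0.05. In the amino acid response list 7 genes rose and 1 fell, and in the list of other amino acid transporters 5 rose and 0 fell.

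Of the marker genes of neurons and other cell types, 4 were called over all dose levels, where 10.1% of all genes were called, and the sums of each list overlapped between the media. Single genes make up most of the astrocyte (Vim, mean 3266 CPM), microglia (Tmem119, 159 CPM) and endothelial sums (Flt1, 51.8 CPM). These sums are therefore not levels of a cell type. Of 8 tested fibroblast markers 2 rose, Postn by 0.69 ± 0.08 and Col1a1 by 0.23 ± 0.06, and the list's sum was 4010 to 6215 CPM in normal and 5095 to 6316 CPM in high glucose. Of 5 tested neuron markers 1 fell, Map2 by 0.39 ± 0.08, with a sum of 120 to 164 CPM in normal and 114 to 137 CPM in high glucose. Of 4 tested microglia markers 1 rose, Csf1r by 0.88 ± 0.22, a call that was lost without HG3 replicate 3 (0.68), with sums of 130 to 219 and 161 to 208 CPM and Itgam at 0. Of the astrocyte (3 tested, sums of 3059 to 4002 and 2724 to 3716 CPM, Aqp4 at 0), oligodendrocyte (1 tested, 1.98 to 6.59 and 3.42 to 7.92 CPM, Olig2 and Sox10 at 0), endothelial (1 tested, 40.6 to 58.5 and 41.8 to 62.4 CPM) and hypothalamic markers (1 tested, 1.62 to 7.85 and 1.30 to 6.18 CPM) edgeR called 0 over all dose levels. Their part in the media differences of the transporter genes was not tested.

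The genes whose profile over the 8 group means was nearest to that of Slc7a3 were found among 10195 genes with a mean of at least 5 CPM, by the root mean square distance of centred log2 CPM. They were Pde12 (distance 0.244), which trims mitochondrial poly(A) tails, Depdc1b (0.256), Sema7a (0.266), a membrane-anchored semaphorin, B4galt4 (0.267), a galactosyltransferase, and 4930579G24Rik (0.267), where the median distance of all genes was 0.531. None of the other 9 transporter genes was among them. The nearest of the 9 was Slc7a6, at 0.473, and the farthest was Slc7a2, at 0.769, which ranked 9954 of the 10195. The distances rest on 8 means from 22 libraries that all genes share. The 5 nearest genes had means of 5.59 (Pde12) to 8.77 CPM (Sema7a), near the minimum of 5 CPM. At such low counts the group means scatter more, so these matches are imprecise.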

How the data were processed

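Per the labels' protocols, a PureLink RNA Mini Kit and DNase gave the RNA, and its polyadenylated part went into VAHTS Universal V8 libraries. GRCm39, STAR 2.7.5c, HTSeq 1.99.2, FastQC 0.11.9 and DESeq2 3.16 are named in the submitters' processing notes, and the strand setting in none of the sources used here. The authors deposited raw read counts for each gene, as whole numbers. Each file has 56941 gene IDs and 5 summary lines, which stayed out, with 14.4 to 20.6% of reads outside genes, 3.46 to 4.15% ambiguous and 16.5 to 18.9% aligned to several places. Symbols (for 51948 IDs), exon lengths and promoters came from GRCm38 tables, as names, lengths and sequences only.

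CPM were divided by gene counts alone. Tests were edgeR 4.0.16 quasi-likelihood F tests in R 4.3.3, on all 22 libraries, with TMM scaling, edgeR's default low-count filter by group (43660 IDs removed), robust fitting and Benjamini-Hochberg adjustment at 0.05, with 14 residual degrees of freedom, and were tested on simulated data. DESeq2 1.42.0 was an alternative. Replicates differed by more than counting noise in all 20 pairs (chi-square per degree of freedom 3.38 to 21.0). The genes named outside the 10 were up to 4 called genes of each list with the lowest p over all dose levels, and the 5 nearest profiles. The 10 genes, the lists and the tests were chosen with earlier results of these data known.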

Additional observations from a re-analysis of the deposited data

How the results depend on the processing

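Each library was left out in turn, and the fits were repeated with DESeq2, with RLE factors, without the low-count filter, within the groups compared, with a replicate block, with the identical file kept in either or both groups, and without both libraries that stood apart (NG3 replicate 3 and HGC replicate 2). No direction reversed for a called result. Over all of them, the difference of Slc7a3 ranged from -2.21 to -1.59 between the controls and from -0.87 to -0.66 over all dose levels, and that of Slc7a2 from 0.76 to 0.90 and from 0.48 to 0.54. These media differences, and the calls of the 10 genes in them below, belong to the contrast that chose the set. Their stability describes that choice and is no support for it. Slc3a2's call between the controls was lost without NGC replicate 1 or 2 or without HGC replicate 1, 2 or 3, and it passed over all dose levels with DESeq2, without both libraries that stood apart and in 5 fits that left out 1 library. Slc7a1's call in the treated libraries was lost without NG2 replicate 1, HG2 replicate 2 or HG3 replicate 1. With DESeq2, 1 gene of all genes passed for treatment over both media, 68 in normal glucose, 29 for the interaction and 184 pairs at single doses, and without the filter 4, 62, 42 and 262, and 5 in high glucose. RLE factors left 6 pairs. With all 24 files 3 genes passed in normal glucose, 6 in the interaction and 54 pairs, with the identical file in HG2 3 and 6, and in HG3 3 and 3. Without the 2 libraries that stood apart 4 genes passed for treatment in normal glucose, and 4 of the 10 transporters passed between the controls, with Slc38a2 added. Leaving out each library in turn gave 2 to 3 of the 10 called and 163 to 421 genes between the controls, 2 to 3 and 958 to 1597 over all dose levels, and 1 to 2 and 654 to 1277 in the treated libraries. It gave 0 to 1 genes for treatment over both media, 0 to 10 in normal glucose, 0 in high glucose, 0 to 4 for the interaction and 0 to 185 pairs at single doses, and 0 of the 10 in each. The causes were not tested. At a minimum of 1 CPM the profile nearest to that of Slc7a3 was Lrp4 (distance 0.140), and 0 of the 5 nearest genes were shared.

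Libraries with the same replicate number showed no clear shared deviation, which does not settle whether they were handled together. In 70 pairs of libraries with the same number, deviations from the group means correlated at -0.108 to 0.165, and 1 of the 70 was over 0.1. The median was 0.011, against -0.005 in 141 pairs with different numbers. With the replicate block the difference of Slc7a3 was -1.92 between the controls and -0.75 over all dose levels, and the interaction was 1.56 (edgeR adjusted p 0.215). Depth limits Slc7a3 and Slc7a11 most, with 7 to 67 and 1 to 20 counts per library.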
